A study of Homo sapiens with 4 samples.

Results

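The mitochondrial ribosomal protein genes are the genes of the sgRNA count table whose symbols begin with MRPL or MRPS followed by a digit, 77 of 19112 genes. They comprise 48 MRPL genes, named for the large subunit, and 29 MRPS genes, named for the small subunit, and each was targeted by 4 sgRNAs, 308 of 77441 in the table. The screen used A549, a human lung adenocarcinoma cell line, carrying the Brunello library, a genome-wide pool of sgRNAs that each guide the nuclease Cas9 to 1 gene. The transduced cells were selected with puromycin and passaged for 3 weeks in 4 µM HQ461, a molecular glue that leads to degradation of cyclin K, or in the vehicle DMSO at 0.1%. The labels name 2 biological replicates of each treatment, but the table has 1 column per treatment, so no difference given here has a replicate check, and no test between the treatments was possible. The screen asks which knockouts leave more or fewer cells after HQ461 than after DMSO.

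The mitochondrial ribosome is made of ribosomal RNAs encoded by mitochondrial DNA and of proteins that are encoded in the nucleus and imported. It translates the few mitochondrial messenger RNAs, whose products are core subunits of the respiratory chain and of ATP synthase. Its large subunit forms peptide bonds and its small subunit reads the message. Some of its proteins have bacterial homologues, while others occur only in mitochondrial ribosomes. Loss of these proteins is known to slow the growth of many cultured cell lines. The table identifies each sgRNA by a number, and the sequences and cut sites of the sgRNAs were not analysed here.

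With DMSO, sgRNAs against mitochondrial ribosomal protein genes were scarce. They were 0.398% of the library's sgRNAs, and they held 0.180% of the 14428845 DMSO counts (95% exact Clopper-Pearson interval 0.177% to 0.182%) and 0.152% of the 16127620 HQ461 counts (0.150% to 0.153%). These intervals and all others given here cover counting error only, since the values are PCR reads counted without molecular identifiers. Counts were scaled by the median ratio between the columns, so that 0.694 HQ461 counts correspond to 1 DMSO count when an sgRNA has kept its relative level. On that scale the group's summed counts, 25905 with DMSO and 24438 with HQ461, were higher with HQ461, although their share of the total was lower. The HQ461 total includes 374193 counts of UBE2G1 and 70253 of DDB1, against 408 and 118 with DMSO. The shares therefore do not show a loss of the group with HQ461. A gene's level was taken as the median normalized count of its sgRNAs. Over the 77 genes the median level was 47.9 with DMSO and 39.0 with HQ461, against 130 and 137 over all 19111 genes with counts. The DMSO median of all genes was thus 2.70 times that of the mitochondrial ribosomal protein genes, and 73 of the 77 lay below it. By contrast, the 77 genes of the cytosolic ribosome had a median level of 8.75 with DMSO. The count of an sgRNA in the starting pool was not used here, so a low start and loss during culture cannot be told apart.

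**Figure D1:**
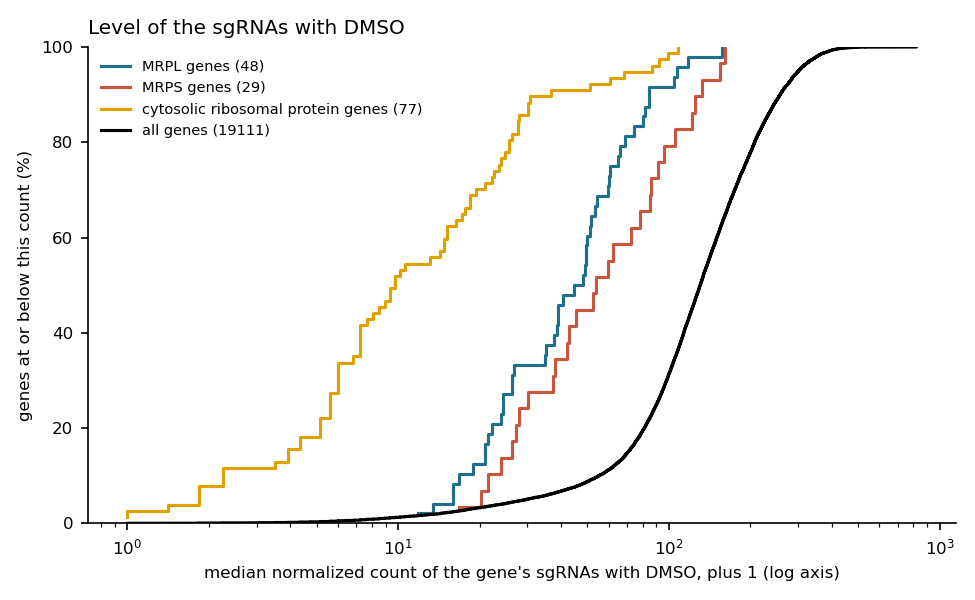
Cumulative share of genes (y axis, %) against the median normalized count of their sgRNAs with DMSO plus 1 (x axis, log scale), for 48 MRPL genes, 29 MRPS genes, 77 cytosolic ribosomal protein genes and all 19111 genes. The MRPL and MRPS curves lie between that of the cytosolic ribosome, with a median of 8.75 counts, and that of all genes, with a median of 130 counts.

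Within the group, the level with DMSO ran from 10.8 for MRPL43 to 160 for MRPS33. The 5 genes of lowest level were MRPL43, MRPL57, MRPL20, MRPL39 and MRPS21, at 10.8 to 15.8, and MRPL4 tied with MRPS21 at 15.8. MRPL43, MRPL57 and MRPL39 encode proteins that occur only in mitochondrial ribosomes, whereas MRPL20 and MRPS21 have bacterial homologues. The 5 of highest level were MRPS33, MRPL9, MRPS24, MRPS11 and MRPS9, at 124 to 160, and only the first 4 of them reached the median of all genes. The median level was 45.4 for MRPL genes and 52.9 for MRPS genes, and the ranges overlapped, 10.8 to 156 and 15.8 to 160.

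With HQ461 the values of this group lay modestly under those of all genes. The gene value is the median over its sgRNAs of the log2 ratio of normalized counts, HQ461 over DMSO, with 1 added to each count, a scale that understates the change of genes with few counts. The median value of the 77 genes was -0.39 (quartiles -0.76 and 0.16), against -0.02 for all genes (quartiles -0.46 and 0.44). In all, 49 of the 77 genes lay under 0, where 51.3% of all genes did. Past 2-fold, a log2 ratio of 1 or more in size, 10 genes were lower (13.0%, with 7.69% of all genes) and 1 was higher (1.30%, with 9.01% of all genes). At least 3 of the 4 sgRNAs were lower in 35 genes (34.8% of all genes had as many) and at least 3 were higher in 11 genes (32.4% of all genes). All 4 sgRNAs were lower in 13 genes (8.88% of all genes) and higher in 1, MRPL10 (10.1% of all genes). With each column scaled by its total count instead, the median of the group was -1.06 and that of all genes -0.70. Under that scaling 41 genes were past 2-fold lower, as were 32.1% of all genes, and 0 were higher, as were 2.72% of all genes. With the summed counts of a gene as its value, the group's median was -0.014 and that of all genes 0.22, with 8 genes past 2-fold lower (3.68% of all genes) and 11 higher (18.1% of all genes). With 5 added to each count in place of 1, 5 of the 77 genes were past 2-fold lower, near the share of all genes, 5.81%.

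**Figure D2:**
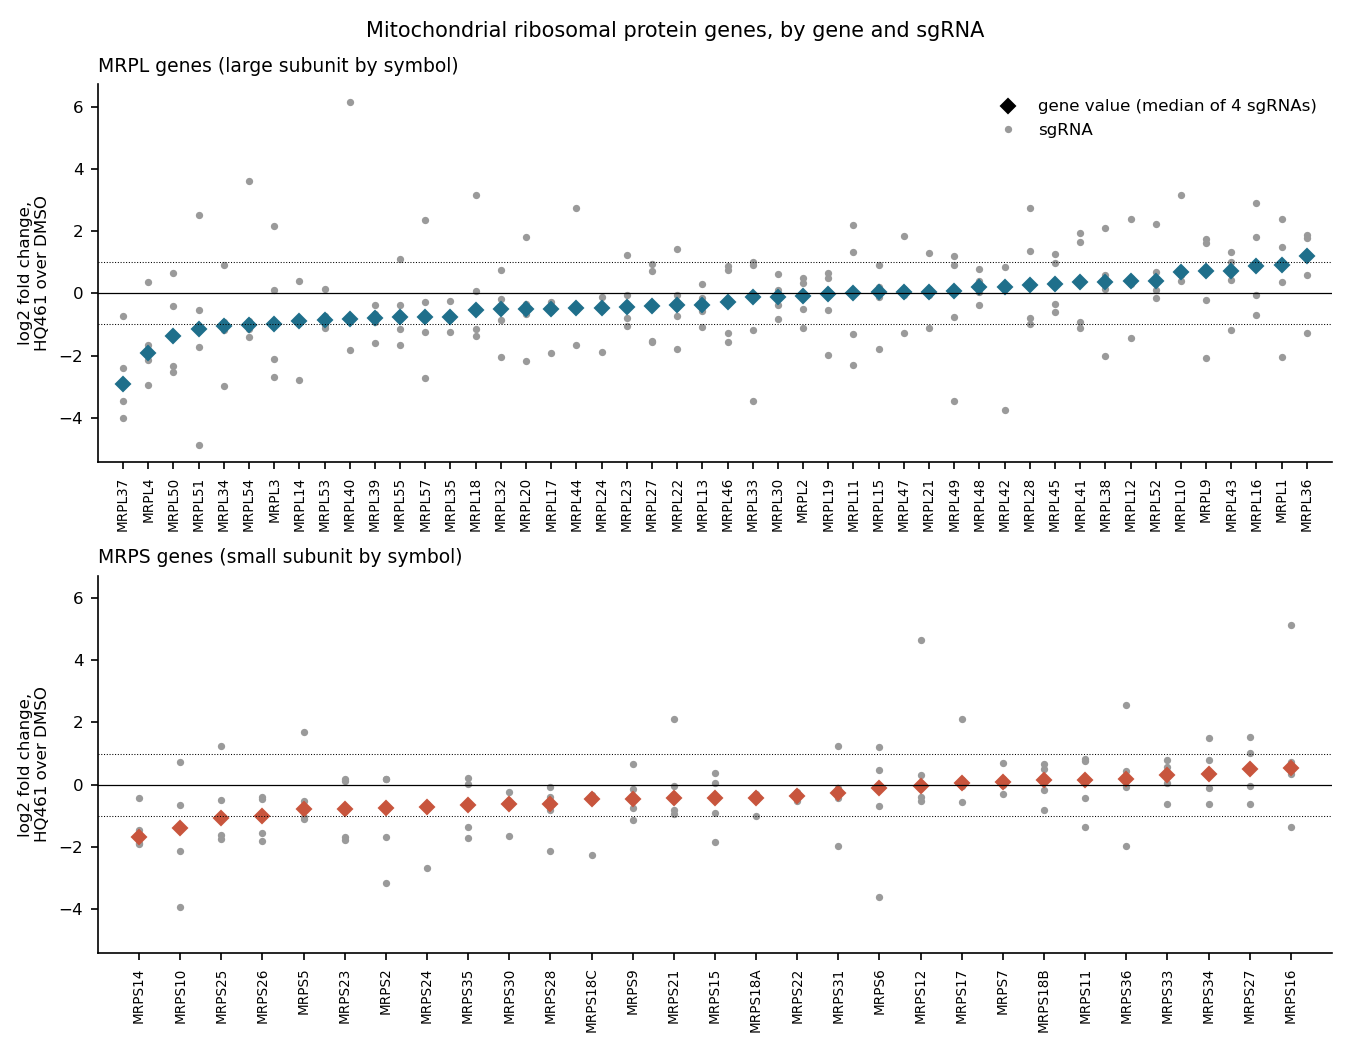
Log2 fold change, HQ461 over DMSO (y axis), of each mitochondrial ribosomal protein gene (x axis, ordered by value), with MRPL genes above and MRPS genes below. Diamonds are gene values, grey points are the 4 sgRNAs of a gene, and dotted lines mark 2-fold. The gene values run from -2.93 for MRPL37 to 1.19 for MRPL36, and the sgRNAs of a single gene often lie on both sides of 0.

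MRPL37, MRPL4 and MRPS14 had the lowest values. MRPL37 (chromosome 1, 54184041 to 54225464, GRCh38), a large-subunit protein found only in mitochondrial ribosomes, had a log2 fold change of -2.93 and was number 26 of 19111 genes from the lowest. Its sgRNAs had 41, 12, 81 and 15 counts with DMSO and 1, 0, 10 and 6 with HQ461. All 4 were thus lower, and their summed counts gave a normalized ratio of 0.164 (95% exact interval 0.0933 to 0.272). MRPL4 (chromosome 19, 10251901 to 10260055), homologous to the bacterial protein that lines the exit tunnel of the nascent peptide, had a log2 fold change of -1.91. Its sgRNAs had 8, 49, 30 and 2 counts with DMSO and 0, 7, 6 and 2 with HQ461, so the last of them carries almost no information. MRPS14 (chromosome 1, 175010789 to 175023425), a protein of the small-subunit head, had a log2 fold change of -1.68. Here the sgRNAs had 14, 378, 18 and 47 counts with DMSO and 2, 70, 4 and 24 with HQ461. All 4 were lower, and most counts of the gene came from a single sgRNA. With 5 added to each count in place of 1, MRPL37, MRPL4 and MRPS14 were at -1.84, -1.26 and -1.10.

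The other genes past 2-fold lower were MRPS10 and MRPL34, with bacterial homologues, and MRPL50, MRPL51, MRPL54, MRPS25 and MRPS26, without. Their log2 fold changes ran from -1.38 for MRPS10 to -1.01 for MRPS26. MRPL3, at -0.999, lay just within the 2-fold bound, with 2 sgRNAs lower and 2 higher. Its sgRNAs had 53, 4, 81 and 63 counts with DMSO and 5, 0, 61 and 198 with HQ461. Their summed ratio of 1.89 (1.57 to 2.29) went the other way from the median. Among the 7 genes past the bound, only MRPS26 had all 4 sgRNAs lower. These had 64, 223, 62 and 164 counts with DMSO and 12, 52, 31 and 87 with HQ461. MRPS10 had 17, 192, 39 and 68 counts with DMSO and 0, 30, 17 and 78 with HQ461. MRPL50 had 47, 34, 54 and 5 counts with DMSO and 5, 4, 28 and 6 with HQ461. In both genes only the last of these sgRNAs was not lower. MRPL51 had 76, 46, 74 and 14 counts with DMSO and 1, 9, 35 and 60 with HQ461. MRPL34 had 31, 67, 107 and 61 counts with DMSO and 2, 20, 39 and 81 with HQ461. Again 3 sgRNAs were lower and the last was higher. In MRPL54 and MRPS25 the sum over the sgRNAs went the other way from the median. MRPL54 had 93, 62, 205 and 83 counts with DMSO and 24, 19, 77 and 717 with HQ461, so a single sgRNA raised its summed ratio to 2.72 (2.42 to 3.06). In MRPS25 the counts were 27, 7, 62 and 70 with DMSO and 5, 1, 30 and 116 with HQ461. With summed counts, MRPS10, MRPL51, MRPL34 and MRPS26 were also no longer past 2-fold, at -0.81, -0.47, -0.38 and -0.96. MRPS10 was at -0.65 and MRPS25 at 0.37 when sgRNAs under 30 normalized counts with DMSO were left out.

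MRPL36 was the 1 gene past 2-fold higher, at a log2 fold change of 1.19. It lies on chromosome 5 (1798385 to 1801366) and encodes a small zinc-binding protein of the large subunit. Its sgRNAs had 61, 16, 93 and 289 counts with DMSO and 17, 17, 226 and 743 with HQ461. A single sgRNA was lower and the 2 with most counts were clearly higher. MRPL36 was no longer past 2-fold with the mean over sgRNAs, at 0.75, or with total-count scaling, at 0.52. It was at 1.65 with summed counts and at 1.79 without sgRNAs under 30 normalized counts with DMSO. Scaling by non-targeting controls gave 1.23 and a pseudocount of 5 gave 1.11. MRPL1, MRPL16, MRPL43, MRPL9 and MRPL10 followed at 0.92, 0.88, 0.72, 0.71 and 0.69, and the highest MRPS gene was MRPS16 at 0.55.

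The subunits were compared by symbol first. The MRPL genes lay at a median of -0.31, with 6 of 48 past 2-fold lower (12.5%) and 1 higher (2.08%). The MRPS genes lay at -0.43, with 4 of 29 lower (13.8%) and 0 higher. Of all genes, 7.69% were lower and 9.01% higher. Their difference, large minus small, was 0.12 and has no test. With summed counts it was 0.32, and the median of the MRPL genes turned to 0.23. Symbols do not always give the place of a protein. MRPS30 and MRPS18A belong to the large subunit, and MRPS36 has been assigned to the α-ketoglutarate dehydrogenase complex. These 3 had log2 fold changes of -0.63, -0.43 and 0.18, and with genes placed by structure the difference between the subunits was 0.056. Genes with bacterial homologues (44) had a median of -0.38 and those specific to mitochondria (30) a median of -0.40. Within the large subunit these medians were -0.13 over 29 genes and -0.46 over 20, and within the small subunit -0.44 over 15 and -0.33 over 10.

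The sgRNAs of a gene often disagreed. The SD between the 4 sgRNAs of a gene had a median of 1.29 over the 77 genes and of 0.96 over all genes, which had more counts. Within ranges of the DMSO count it was 1.41 against 1.54 under 30, 1.30 against 1.13 from 30 to 100 and 1.02 against 0.89 from 100 to 300. MRPS22 had the tightest sgRNAs, with an SD of 0.12. They were at 15, 38, 49 and 182 counts with DMSO and at 7, 20, 26 and 107 with HQ461, and the gene value was -0.38. MRPL40 had the widest, with an SD of 3.69. Here 3 sgRNAs went from 152, 98 and 13 counts to 29, 37 and 5, while the remaining one went from 45 to 2302. MRPS12, a protein of the decoding centre, likewise had a single sgRNA that went from 72 counts to 1267, while its gene value was -0.046. In all, 20 of the 77 genes had a summed ratio of the opposite sign to their gene value, 15 of them lower by the median and higher by the sum. The same count over all genes was not made. Summing also raised the median of all genes, from -0.02 to 0.22, so these counts cannot be read as a trait of the group.

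Single sgRNAs were set against the 1st and 99th percentiles of the non-targeting controls, -1.67 and 2.92 on the log2 scale. Of the 308 sgRNAs, 49 lay under the lower bound (15.9%, against 7.53% of all targeting sgRNAs) and 6 above the upper one (1.95%, against 2.44%). These 6 belonged to 6 different genes, where 8.82% of all genes had such an sgRNA, MRPL10, MRPL18, MRPL40, MRPL54, MRPS12 and MRPS16. At least 2 sgRNAs lay under the lower bound in 9 genes, 4.7% of all genes having as many. They were MRPL3, MRPL4, MRPL37, MRPL50, MRPL51, MRPS2, MRPS10, MRPS14 and MRPS23, and MRPL37 had 3 such sgRNAs, as many as in 0.753% of all genes. The controls had a median of 437 normalized counts with DMSO, against 44.2 for the sgRNAs of the group, so their bounds hold less counting error. Among sgRNAs with 30 to 100 normalized counts with DMSO, 19.0% of those of the group and 10.99% of all targeting sgRNAs lay under the lower bound. Under 30 counts these shares were 14.5% and 19.4%. No sgRNA of the group was at 0 with DMSO (0 of 308), where 0.705% of all targeting sgRNAs were. With HQ461, 6 were at 0, or 1.95%, near the 1.36% of all targeting sgRNAs. Those 6 had 4 to 17 counts with DMSO and belonged to MRPL3, MRPL4, MRPL33, MRPL37, MRPL42 and MRPS10.

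The values were also read by the count with DMSO. In the 24 genes under 30 normalized counts with DMSO, the median log2 fold change was -0.12, against -0.17 for all genes in that range. There 3 genes were past 2-fold lower (12.5%, against 23.2% of all genes in the range), and these were MRPL37, MRPL4 and MRPS14, the lowest of the whole group. In the 43 genes between 30 and 100 it was -0.41, against -0.05, and 7 of them were past 2-fold lower (16.3%, against 11.7% of all genes in the range). In the 10 genes between 100 and 300 it was -0.53, against -0.01, with 0 past 2-fold either way. Of all genes in that range, 5.18% were past 2-fold lower and 7.80% higher. Past 2-fold higher were 0 of the 24 genes under 30 counts, against 16.998% of all genes in the range. From 30 to 100 counts 1 of the 43 genes was past 2-fold higher, against 10.8%. None of the 77 genes reached 300. Across the 77 genes the log2 fold change and the DMSO level had a Spearman correlation of -0.02, given as a description, since the DMSO count enters both quantities. The levels with DMSO and with HQ461 had a Spearman correlation of 0.78 over the same genes, which share both columns.

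**Figure D3:**
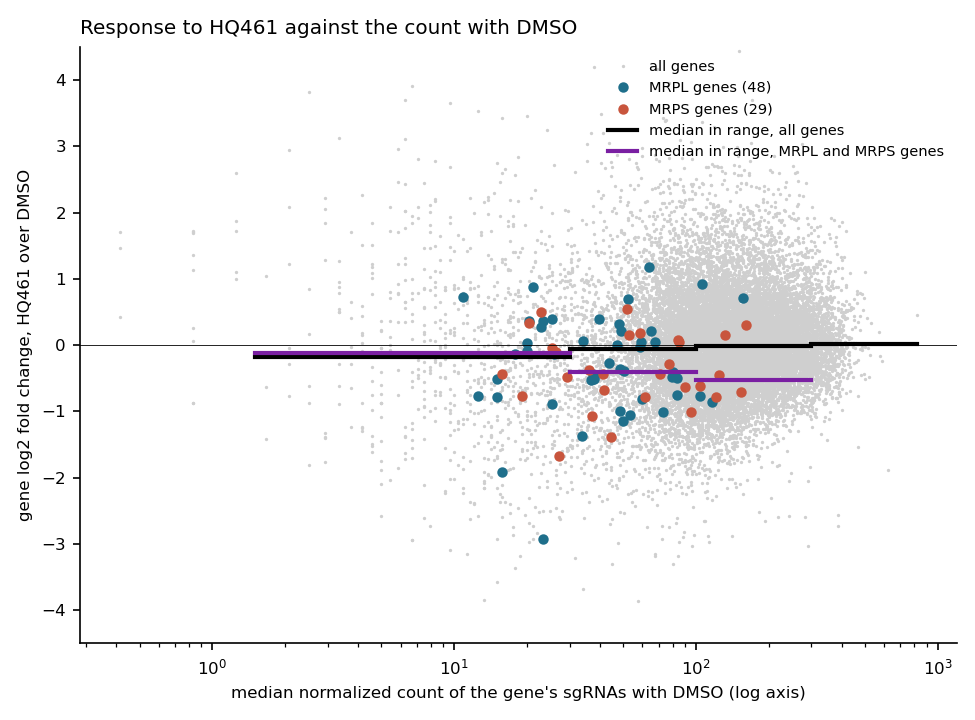
Gene log2 fold change, HQ461 over DMSO (y axis), against the median normalized count of the gene's sgRNAs with DMSO (x axis, log scale) for MRPL genes, MRPS genes and all genes in grey, with bars at the medians within 4 ranges of the count. The y axis ends at 4.5 on both sides, which leaves out 14 genes, and 3 genes with a median of 0 with DMSO have no place on the x axis. The bar of the MRPL and MRPS genes lies beside that of all genes under 30 counts and below it from 30 to 300.

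Position along the genome moved with the values. Genes of chromosome 17 had a median log2 fold change of 0.97 over 1083 genes, and genes of 11q from the centromere to 10 Mb beyond DDB1 a median of 0.95 over 387 genes. Of the mitochondrial ribosomal protein genes, 7 lie on chromosome 17, with a median of 0.31, and 4 in the 11q interval, with a median of 0.06. On chromosome 17 these were MRPL10 and MRPL12, parts of the stalk that recruits translation factors, MRPL27, MRPL38, MRPL45, MRPS7 and MRPS23. Their values ran from -0.77 for MRPS23 to 0.69 for MRPL10, whose sgRNAs had 64, 70, 62 and 31 counts with DMSO and 59, 74, 75 and 201 with HQ461. The 11q genes were MRPL11, MRPL16, MRPL21 and MRPL49, at 0.01, 0.88, 0.05 and 0.06. MRPL16, a large-subunit protein with a bacterial homologue (59806140 to 59810778) lies between the centromere and DDB1, and its 4 sgRNAs went from 24, 18, 27 and 66 counts to 10, 12, 68 and 347. The other 66 genes had a median of -0.43, against -0.07 for all genes outside both regions. The group lay under all genes of the same region by 0.66 on chromosome 17, by 0.89 on 11q and by 0.36 elsewhere. Without both regions, which hold 9 MRPL and 2 MRPS genes, the MRPL median was -0.48 and the MRPS median -0.43, so the order of the subunits turned. The part of these regions in the values of single genes was not tested.

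**Figure D4:**
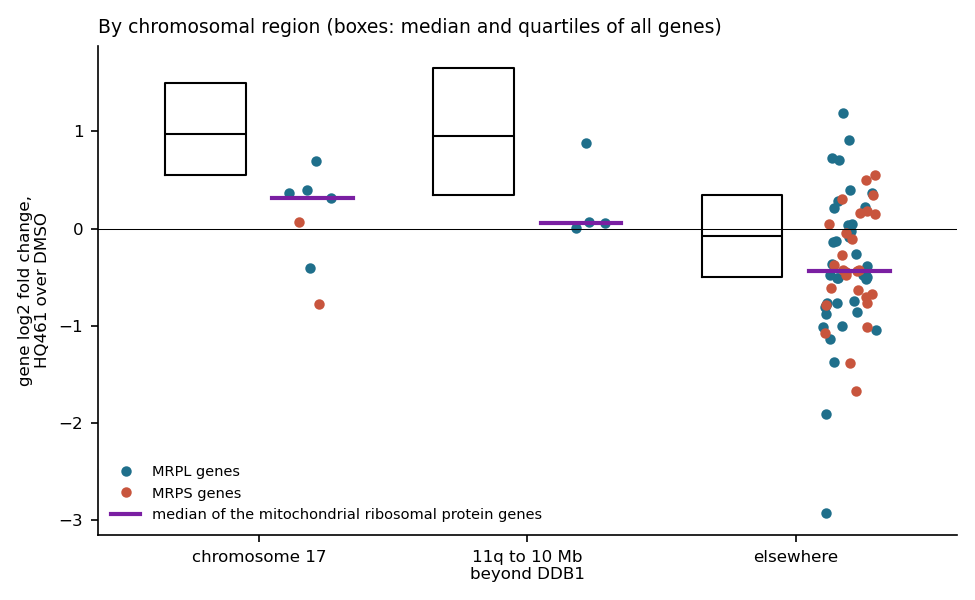
Gene log2 fold change, HQ461 over DMSO (y axis), of the mitochondrial ribosomal protein genes on chromosome 17 (7 genes), on 11q to 10 Mb beyond DDB1 (4) and elsewhere (66), shown as points with their median. Boxes give the median and quartiles of all genes in each region, and the medians of the group, 0.31, 0.06 and -0.43, lie under those of all genes, 0.97, 0.95 and -0.07.

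Mitoribosomal proteins that carry other names gave similar values. The median over these 6 genes was -0.46 on the log2 scale, and 5 of them lay under 0. DAP3, a GTP-binding protein of the small subunit, was the 1 gene past 2-fold lower (7.69% of all genes were), at -1.35. Its summed counts went from 174 with DMSO to 50 with HQ461. GADD45GIP1 was at -0.81, CHCHD1 at -0.49, PTCD3 at -0.43 and ICT1, a peptidyl-tRNA hydrolase built into the large subunit, at -0.42. AURKAIP1, of the small subunit, was the exception at 0.99, from 267 summed counts to 643.

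Other steps of mitochondrial gene expression gave mixed values. Their counts past 2-fold stand beside 7.69% of all genes lower and 9.01% higher. The list of 17 translation factors was drawn broadly and also held LRPPRC, SLIRP and OXA1L. Its median was -0.55, with 4 genes past 2-fold lower and 1 higher. It ran from MRRF, the ribosome recycling factor, at -1.47 to TACO1, a translational activator encoded on chromosome 17, at 1.24. The lower genes were MRRF, TUFM at -1.39, SLIRP at -1.15 and LRPPRC at -1.06. The 26 assembly factors of the mitochondrial ribosome had a median of -0.05, with 1 past 2-fold lower, METTL17 at -2.14 (181 summed counts with DMSO, 36 with HQ461), and 0 higher. The 19 mitochondrial tRNA synthetases and amidotransferase subunits had a median of -0.23, with 3 lower and 2 higher, from TARS2 at -1.79 to VARS2 at 2.08. Of these 19 genes, 14 had under 30 normalized counts with DMSO. VARS2 had a median of 2.08 normalized counts with DMSO, and its summed counts were 105 with DMSO and 73 with HQ461. The 9 genes of mitochondrial DNA replication and transcription had a median of 0.35, from TFB2M, an initiation factor, at -1.26 to TEFM, an elongation factor encoded on chromosome 17, at 2.29. Outside chromosome 17 and the 11q interval 7 of these 9 remained, with a median of 0.12, 0 past 2-fold higher and 1 lower. Of all genes outside both regions, 5.69% were past 2-fold higher and 8.18% lower. The cytosolic ribosomal protein genes, in contrast, had a median of 0.59, with 29 of 77 past 2-fold higher and 6 lower. Of these 77 genes, 69 had under 30 normalized counts with DMSO. In that range 16.998% of all genes were past 2-fold higher and 23.2% lower. Outside chromosome 17 and the 11q interval 71 of the 77 remained, with a median of 0.39, 24 past 2-fold higher and 6 lower. Of all genes there, 5.69% were higher and 8.18% lower.

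**Figure D5:**
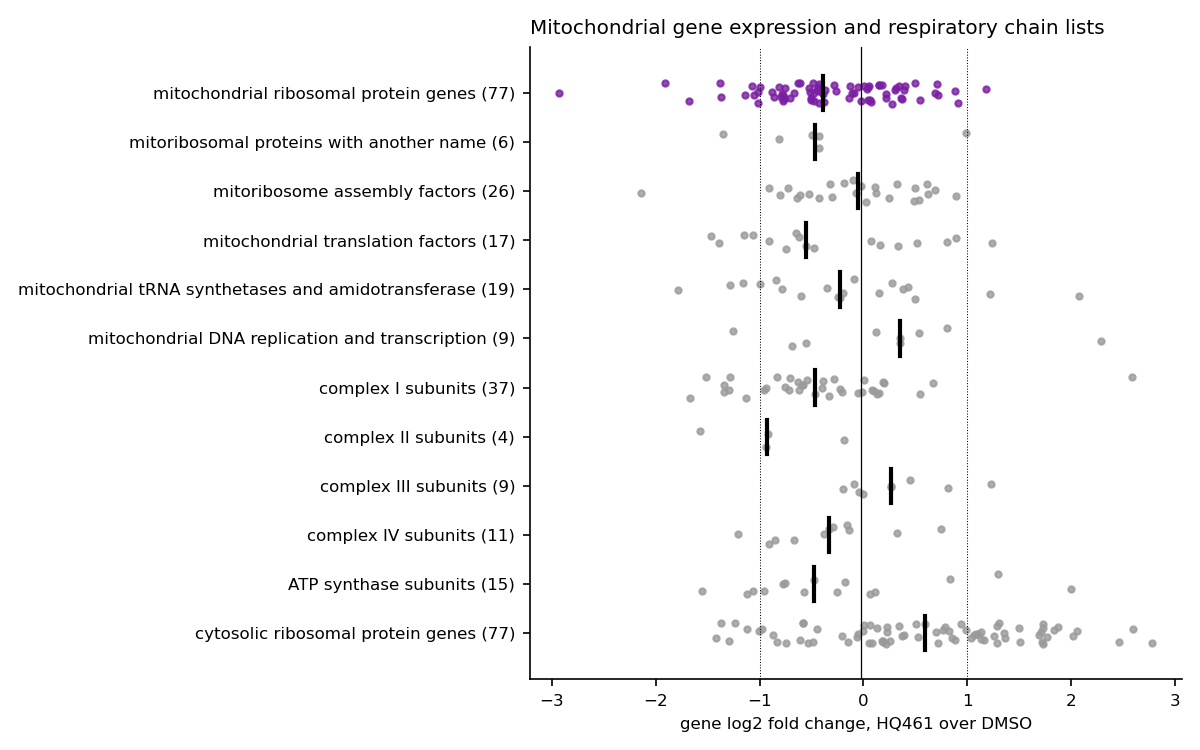
Gene log2 fold change, HQ461 over DMSO (x axis), of each gene (points) in 12 lists (rows, with the number of genes), with a bar at each list's median, a line at the median of all genes and dotted lines at 2-fold. The medians of the mitochondrial ribosomal protein genes, -0.39, and of complex I, -0.46, lie left of that of all genes, and the median of the cytosolic ribosomal protein genes, 0.59, lies right of it.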

How the data were processed

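The deposited values are raw counts of reads per sgRNA, 1 column per treatment, which the authors made with MAGeCK (0.5.9.2 in the submitters' processing notes). The sources used here do not give how the replicates were combined. Without replicate columns no count model was fitted. MAGeCK's test was not repeated because its p-values hold no spread between cultures.

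Counts were analysed in Python 3.11.15 (numpy 2.4.6, pandas 2.3.3, scipy 1.17.1). sgRNAs at 0 in both columns (273) were removed, and the others scaled by median ratios (size factors 0.833 for HQ461 and 1.20 for DMSO). Functions were tested on simulated data. Positions came from GENCODE 44 on GRCh38, where all 77 genes matched by symbol, and 11q was taken from 54 Mb. The gene rule, the lists and the subunit classes were chosen with earlier results of these data known. Genes named are those past 2-fold with at least 3 sgRNAs of that sign (at most 12 each way), the 5 lowest and 5 highest with DMSO, those on chromosome 17 or the 11q interval, those placed or named otherwise, and the extremes of other lists. Further genes were named after their values were seen. Alternatives were scaling by total counts or by controls, a pseudocount of 5, the mean or sum over sgRNAs, a minimum of 30 counts, omission of both regions and subunits by structure.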

Additional observations from a re-analysis of the deposited data

How the results depend on the processing

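The median of the group stayed under that of all genes in all 7 alternatives, by 0.23 to 0.40. That difference was -0.29 with a pseudocount of 5, -0.33 with the mean over sgRNAs, -0.23 with summed counts and -0.40 with a minimum of 30 normalized counts with DMSO. Scaled by total counts, the medians were -1.06 for the group, -0.97 for the large subunit and -1.08 for the small one. Under that scaling all values fall, and 41 genes were past 2-fold lower (32.1% of all genes) and 0 higher (2.72%). Scaled by the non-targeting controls, the medians were -0.35 for the group and -0.28 for the large subunit. A pseudocount of 5 gave -0.31 for the group, -0.22 for the large and -0.37 for the small subunit, with 5 genes lower (5.81% of all genes). The mean over sgRNAs gave -0.32, -0.24 and -0.38 in that order, with 11 genes lower (7.13% of all genes) and 3 higher (10.2%). Summed counts gave -0.014, 0.23 and -0.091, a difference between the subunits of 0.32, with 8 genes lower (3.68%) and 11 higher (18.1%). The minimum of 30 counts left 73 genes and gave -0.43 for the group and for the large subunit, a difference between the subunits of 0.020, with 14 genes lower (8.06%) and 7 higher (8.92%). Without chromosome 17 and the 11q interval the group was at -0.43 and the large subunit at -0.48, and the difference between the subunits turned to -0.043. Placed by structure, the large subunit was at -0.38 and the difference at 0.056. Of the 10 genes past 2-fold lower, the number still so was 10 with total counts and without both regions, 8 with control scaling and with the mean, 7 with the minimum count, 5 with the pseudocount of 5 and 4 with summed counts. MRPL54 changed sign, to 0.050 with the mean and 1.44 with summed counts, as did MRPS25, to 0.40 with summed counts and 0.37 with the minimum count. The cause of these shifts was not tested beyond the construction of each alternative. No paired analysis was possible because both replicates of a treatment share 1 column, and leaving out a replicate was not run for the same reason. Depth limits the genes under 30 counts, where a few reads set the value of an sgRNA.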

Other observations

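Subunits of the respiratory chain, whose core members the mitochondrial ribosome translates, were also described. Complex I, the NADH dehydrogenase, had a median log2 fold change of -0.46 over 37 nuclear-encoded genes. Of these, 7 were past 2-fold lower (18.9%, against 7.69% of all genes) and 1 higher (2.70%, against 9.01%). NDUFB8 was lowest, at -1.67, from 134 summed counts with DMSO to 40 with HQ461, and NDUFS7 highest, at 2.59, from 665 to 10476. Complex II, the succinate dehydrogenase, which has no mitochondrially encoded subunit, had a median of -0.93 over 4 genes, from -1.58 for SDHC to -0.18 for SDHB, and 3 of the 4 had under 30 normalized counts with DMSO.

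Complex III had a median of 0.26 over 9 genes, with 0 past 2-fold lower and 1 higher, UQCRQ at 1.23. Of all genes, 7.69% were past 2-fold lower and 9.01% higher, which also holds as the background for the next lists. Complex IV, the cytochrome c oxidase, had a median of -0.33 over 11 genes, from COX7C at -1.20 to COX8A, in the 11q interval, at 0.75. Only COX7C was past 2-fold lower, with 2 sgRNAs lower and 2 higher. The median level of COX7C rose from 70.0 to 160, and its summed counts were 512 with DMSO and 567 with HQ461. ATP synthase had a median of -0.48 over 15 genes, with 3 lower and 2 higher, from ATP5O at -1.55 to ATP5J at 2.00, the latter from 254 summed counts with DMSO to 3150 with HQ461. Outside chromosome 17 and the 11q interval the medians were -0.55 for complex I, -0.35 for complex IV and -0.57 for ATP synthase. No test between these lists exists with 1 column per treatment.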
